A study of Mus musculus with 6 samples.

Results

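Stellate cells are the vitamin A-storing pericytes of the liver sinusoid. They lie between hepatocytes and the sinusoidal endothelium, close to the Kupffer cells, and make most of the fibrillar collagen of the fibrotic liver. In the quiescent state they esterify retinol through LRAT and express reelin, desmin and decorin, and on activation they turn to contractile, collagen-secreting myofibroblasts. In a macrophage preparation their transcripts gauge how much stellate cell RNA was carried along. Here the levels of 10 such transcripts were read in liver F4/80-positive cells, out of 49315 genes in the count tables: *Dcn*, *Col1a1*, *Col1a2*, *Col3a1*, *Lrat*, *Reln*, *Des*, *Pdgfrb*, *Colec11* and *Lum*. They were chosen by name as markers of stellate cells and collagen producers, with no threshold on their values, and each matched a single Ensembl gene.

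The cells came from *Lpcat3* fl/fl mice on a C57BL/6N background. *Lpcat3KOMac* mice carried in addition a single LysMCre allele, a Cre recombinase inserted in the *Lyz2* locus and active in myeloid cells, and WT mice were littermates without Cre. Both groups entered a high-fat diet (60% fat) at 8 to 12 weeks of age and stayed on it for 16 weeks. Livers were digested with collagenase, hepatocytes were spun down at low speed, and F4/80-positive cells were taken from the supernatant with magnetic beads, giving 3 WT and 3 *Lpcat3KOMac* libraries, each from a different mouse as far as the labels show. Magnetic enrichment on F4/80 does not remove every other liver cell, and part of the *Lpcat3* mRNA remained.

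Total counts per library lay between 44954224 and 71392812, and levels are given as CPM (counts-per-million, after TMM scaling for library composition), listed within a group in the order of mouse 1, mouse 2 and mouse 3. *Lpcat3*, the targeted gene, lay between 61.2 and 85 CPM in the WT mice and between 19.4 and 33.3 CPM in the *Lpcat3KOMac* mice, so that the groups did not overlap (adjusted p = 1 in edgeR, as for every gene tested). The 8 Kupffer cell markers summed to between 25400 and 44300 CPM and the 5 hepatocyte markers to between 1720 and 20200 CPM. WT mouse 1 and *Lpcat3KOMac* mouse 2 stood apart with the highest hepatocyte levels. WT mouse 2 stood apart for the transcripts described here, as shown next.

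All 10 transcripts were detected in every library, with at least 58 counts each, and all 10 passed the filter on low counts. Summed, they made up between 0.00742% and 0.0263% of the counts of a library. The sum was 205, 75.9 and 176 CPM for the WT mice and 176, 257 and 150 CPM for the *Lpcat3KOMac* mice. WT mouse 2 was thus the lowest and *Lpcat3KOMac* mouse 2 the highest, and the sums ranged over 3.39-fold. In bulk RNA, fewer stellate cells and less of a transcript per cell cannot be told apart.

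**Figure D1:**
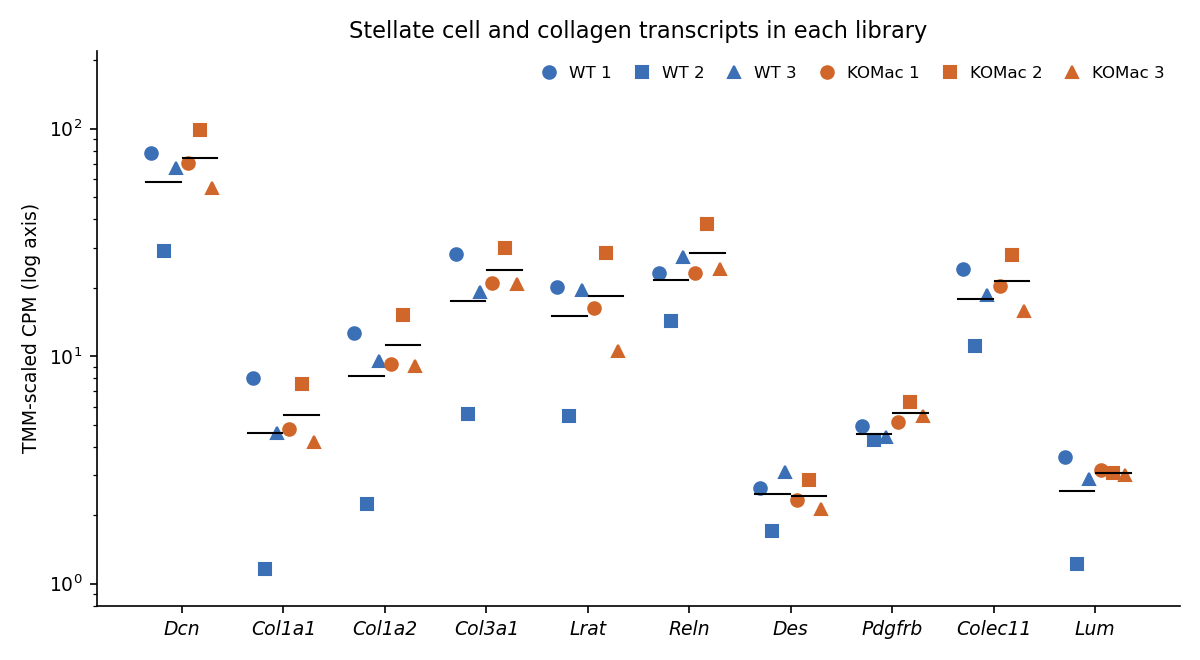
TMM-scaled CPM (log axis) of the 10 transcripts, with blue points for WT mice, orange points for Lpcat3KOMac (KOMac) mice, 1 symbol per replicate number, and black lines for the group means (n = 3). The blue squares, WT mouse 2, are the lowest point of every gene, and Pdgfrb is the only gene whose groups do not overlap.

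*Dcn* encodes decorin, a small leucine-rich proteoglycan that binds collagen fibrils, and was the most abundant of the 10 (chromosome 10 of GRCm38, 97479500 to 97518162, plus strand). It had 5076, 1454 and 3075 counts in WT mice 1 to 3 and 4109, 5089 and 2581 counts in *Lpcat3KOMac* mice 1 to 3. In CPM this was 78.1, 29 and 67.2 in WT and 70.8, 98.2 and 54.8 in *Lpcat3KOMac* mice. The groups overlapped, with WT mouse 2 below all other mice. WT cells averaged 58.1 ± 25.8 CPM and *Lpcat3KOMac* cells 74.6 ± 21.9 CPM (SD, n = 3 each). The log2 fold change was 0.36, with a 95% interval from -0.66 to 1.38 (adjusted p = 1 over all genes tested, edgeR). *Lum*, whose product lumican is a relative of decorin and which lies next to *Dcn* on chromosome 10 (97565501 to 97572703), was at 3.59, 1.22 and 2.89 CPM for the WT mice. In *Lpcat3KOMac* mice it was even, at 3.17, 3.05 and 3 CPM.

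The fibrillar collagens were also lowest in WT mouse 2, at a smaller share of the other libraries than *Dcn*. *Col1a1* (chromosome 11, 94936224 to 94953042), which with *Col1a2* encodes the chains of type I collagen, was at 8.03, 1.16 and 4.59 CPM for the WT mice against 4.8, 7.52 and 4.21 CPM for the *Lpcat3KOMac* mice. *Col1a2* (chromosome 6, 4504814 to 4541544) was at 12.7, 2.24 and 9.49 CPM for WT against 9.25, 15.2 and 9.09 CPM for *Lpcat3KOMac* mice. *Col3a1* (chromosome 1, 45311538 to 45349706), the chain of type III collagen, was at 28, 5.55 and 19.1 CPM for WT against 20.9, 29.8 and 20.8 CPM for *Lpcat3KOMac* mice. In WT mouse 2 the 3 collagens stood at 19.9%, 20.1% and 23.4% of the mean of the other 5 libraries, where *Dcn* stood at 39.3%. The group means of *Col1a1* were 4.59 ± 3.44 CPM in WT and 5.51 ± 1.77 CPM in *Lpcat3KOMac* cells (SD, n = 3 each), so that the spread among WT mice exceeded the difference between the genotypes.

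Of the genes that mark the quiescent stellate cell, *Lrat* stood lowest in WT mouse 2. *Lrat* (chromosome 3, 82892579 to 82903973, minus strand), the enzyme that esterifies retinol for storage, was at 20.1, 5.43 and 19.6 CPM for the WT mice against 16.2, 28.4 and 10.5 CPM for the *Lpcat3KOMac* mice. *Reln* (chromosome 5, 21884454 to 22344702, minus strand), the secreted glycoprotein reelin, was at 23.2, 14.2 and 27.4 CPM for WT against 23.1, 38.2 and 24.1 CPM for *Lpcat3KOMac* mice. *Colec11* (chromosome 12, 28594173 to 28623290, minus strand), a soluble collectin of the lectin complement pathway, was at 24.1, 11.1 and 18.5 CPM for WT against 20.3, 27.9 and 15.8 CPM for *Lpcat3KOMac* mice. For both *Reln* and *Colec11* WT mouse 2 stood at 52.2% of the mean of the other 5 libraries, against 28.7% for *Lrat*.

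The receptor and the filament protein varied least. *Des* (chromosome 1, 75360329 to 75368579), the intermediate filament desmin, was at 2.63, 1.7 and 3.08 CPM for the WT mice against 2.32, 2.84 and 2.12 CPM for the *Lpcat3KOMac* mice. *Pdgfrb* (chromosome 18, 61045150 to 61085061), the receptor for platelet-derived growth factor B on pericytes and stellate cells, was at 4.91, 4.29 and 4.42 CPM for WT against 5.15, 6.27 and 5.44 CPM for *Lpcat3KOMac* mice. Its groups did not overlap, with every *Lpcat3KOMac* mouse above every WT mouse. The ratio of the highest to the lowest library was 1.46 for *Pdgfrb* and 1.82 for *Des*, against 6.94 for *Col1a1*, 6.8 for *Col1a2*, 5.37 for *Col3a1* and 5.22 for *Lrat*.

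WT mouse 2 was the lowest of the 6 libraries for 10 of the 10 transcripts, where it was the lowest for 16.4% of the 16134 genes tested. *Lpcat3KOMac* mouse 2 was the highest for 7 of the 10, against 12.1% of all genes tested. The median ratio of the highest to the lowest library was 3.13 over the 10 transcripts and 1.61 over all genes tested (on log2 CPM with a prior count of 2). Without WT mouse 2 these medians were 1.66 and 1.54. The 10 transcripts share RNA, libraries and scaling, so that they are not separate observations of WT mouse 2.

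Per kilobase of exonic sequence, the scale on which genes can be set beside each other, the order was led by *Dcn* and *Colec11*. *Dcn* was at 31.8 ± 11.1 CPM per kb and *Colec11* at 14.2 ± 4.31 CPM per kb (SD, n = 6 libraries). They were followed by *Lrat* at 3.12, *Col3a1* at 2.11, *Lum* at 1.36, *Reln* at 1.05, *Pdgfrb* at 0.927, *Col1a2* at 0.778, *Col1a1* at 0.77 and *Des* at 0.653 CPM per kb. *Dcn* exceeded *Colec11*, and *Colec11* exceeded *Lrat*, in 6 of 6 libraries, while each later pair of neighbors in this order stood the other way round in 1 or 2 libraries. The exonic length in the count tables joins the exons of all transcripts and is long for *Col1a2* (12426 bases) and *Reln* (23738 bases). With the longest coding transcript instead, *Col3a1* was at 3.72, *Reln* at 2.14 and *Col1a2* at 1.81 CPM per kb, and *Dcn* and *Colec11* kept the first places at 37.7 and 13.8 CPM per kb. For scale, on the exonic length the Kupffer cell lectin *Clec4f* averaged 3520, albumin (*Alb*) 2220 and the sinusoidal endothelial receptor *Stab2* 55.4 CPM per kb. *Stab2* was the highest of the sinusoidal endothelial markers on this scale, and the others lay between 9.27 and 42.1 CPM per kb.

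Relative to *Dcn* counted in the same library, a measure free of library scaling, the 9 other transcripts split in WT mouse 2. *Col1a1* had 3.99 counts per 100 *Dcn* counts in WT mouse 2 (95% exact binomial interval 3.01 to 5.19), below the 6.79 to 10.3 of the other 5 libraries. *Col1a2* had 7.7 (6.3 to 9.34) against 13.1 to 16.6, and *Col3a1* had 19.1 (16.8 to 21.8) against 28.4 to 37.9. *Lrat*, at 18.7 (16.4 to 21.3), was level with the lowest of the others, 19.1 in *Lpcat3KOMac* mouse 3. In the opposite direction, *Pdgfrb* had 14.8 counts per 100 *Dcn* counts in WT mouse 2 (12.8 to 17.1) against 6.28 to 9.92 in the other 5 libraries. *Reln* at 48.9, *Colec11* at 38.3 and *Des* at 5.85 were also above the range of the others, which ended at 43.9, 30.9 and 4.59, although for *Reln* and *Des* the counting intervals of WT mouse 2 (44.6 to 53.5 and 4.64 to 7.28) met those of the next library. *Lum* at 4.2 lay within the range of 3.1 to 5.46. The intervals cover counting error only and not the spread between mice. This ratio was chosen after the values had been seen, and with a single library standing apart it is a description and not a test of genotype.

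**Figure D2:**
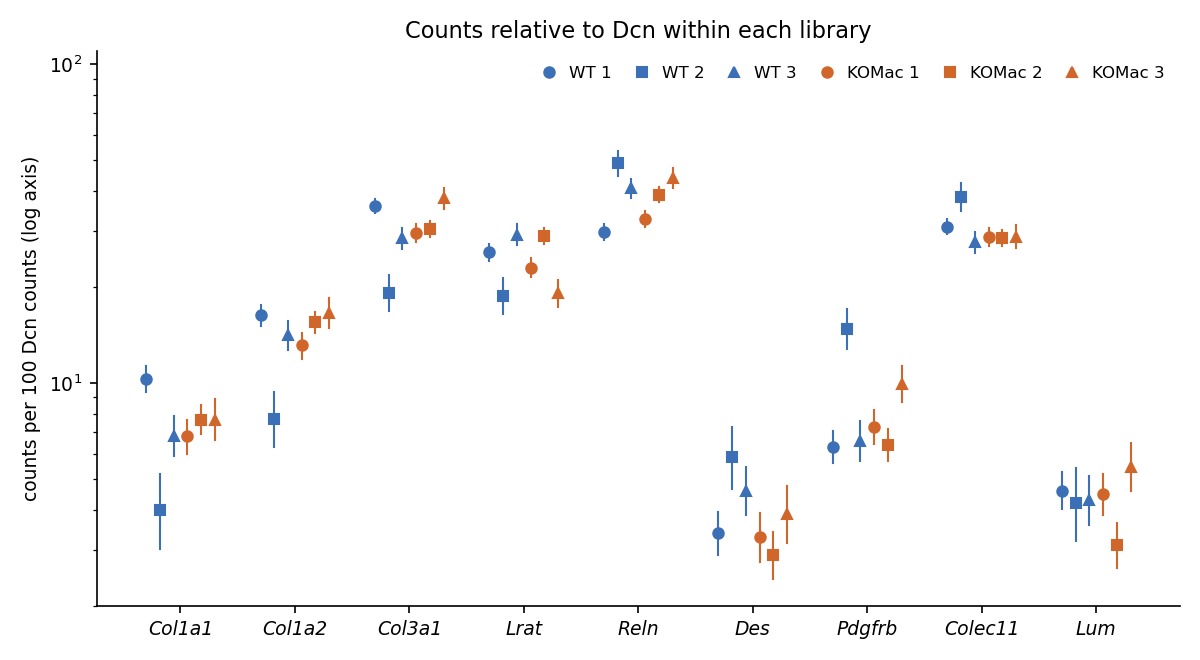
Counts of each transcript per 100 Dcn counts in the same library (log axis), with blue points for WT mice, orange points for Lpcat3KOMac (KOMac) mice and bars for the 95% exact binomial interval. WT mouse 2 (blue square) is lowest for the 3 collagens and highest for Pdgfrb, at 14.8 against at most 9.92 elsewhere.

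Between genotypes, none of the 10 transcripts differed detectably. The adjusted p-value was 1 for each of them in the quasi-likelihood test of edgeR, adjusted over 16134 genes by Benjamini-Hochberg, and 0 of 10 lay under 0.05 before adjustment. Over all genes tested, 0 (0%) were called at an adjusted p-value under 0.05 by edgeR, and 426 (2.64%) lay under 0.05 before adjustment. DESeq2 on the same counts called 15 genes (0.111% of those to which it gave an adjusted p-value), none of them among the 10. The log2 fold changes of 9 of 10 were above 0, where 40.1% of all genes were, and their median was 0.30 against -0.04 over all genes tested. Scaled by total counts alone, 10 of 10 were above 0, against 64.9% of all genes, with medians of 0.39 and 0.06. Of the 426 genes under 0.05 before adjustment 172 were higher and 254 lower in *Lpcat3KOMac* cells, where total counts alone gave 279 higher and 39 lower. Without WT mouse 2 the median of the 10 was 0.00 and 5 of 10 were above 0, against 43.6% of all genes. WT mouse 2 was the lowest library for all 10, so the direction of this shift was set by the choice of library. Without WT mouse 1 the median of the 10 was 0.57 and 10 of 10 were above 0.

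*Col1a2* had the largest log2 fold change, 0.45 (standard error 0.62, 95% interval -1.09 to 2), followed by *Col3a1* with 0.44 (standard error 0.57), *Reln* with 0.40 (standard error 0.31) and *Dcn* with 0.36 (standard error 0.41). *Lrat*, *Col1a1*, *Lum* and *Colec11* lay between 0.25 and 0.29, and *Des* was at -0.02 (standard error 0.29, 95% interval -0.74 to 0.7). The intervals of *Col1a1*, from -1.41 to 1.93, and of *Lrat*, from -1.2 to 1.78, leave room for a change of more than 2-fold in either direction. Without WT mouse 2, *Col1a2* was at 0.01, *Col3a1* at 0.02 and *Dcn* at 0.04, while *Col1a1* stood at -0.20, *Lrat* at -0.11, *Lum* at -0.08, *Des* at -0.23 and *Colec11* at 0.00. *Reln* was at 0.17 without WT mouse 2 and at 0.14 without *Lpcat3KOMac* mouse 2.

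*Pdgfrb* had the smallest range over the 6 libraries. WT cells averaged 4.54 ± 0.326 CPM and *Lpcat3KOMac* cells 5.62 ± 0.581 CPM (SD, n = 3 each), with a log2 fold change of 0.31 and a 95% interval from -0.1 to 0.71 (unadjusted p = 0.112 and adjusted p = 1 in edgeR's quasi-likelihood test). The exact permutation test of its log2 CPM gave p = 0.1 (two-sided), and 6 libraries in groups of 3 cannot give a smaller one. It was the only 1 of the 10 whose groups did not overlap, where 7.49% of all genes tested had groups that did not overlap and 2.29% had them with *Lpcat3KOMac* above WT. Its log2 fold change was 0.27 without WT mouse 2. Scaled by total counts alone its unadjusted p-value was 0.0495 in edgeR, with an adjusted p-value of 1 (0.507 to 1 over the alternatives).

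**Figure D3:**
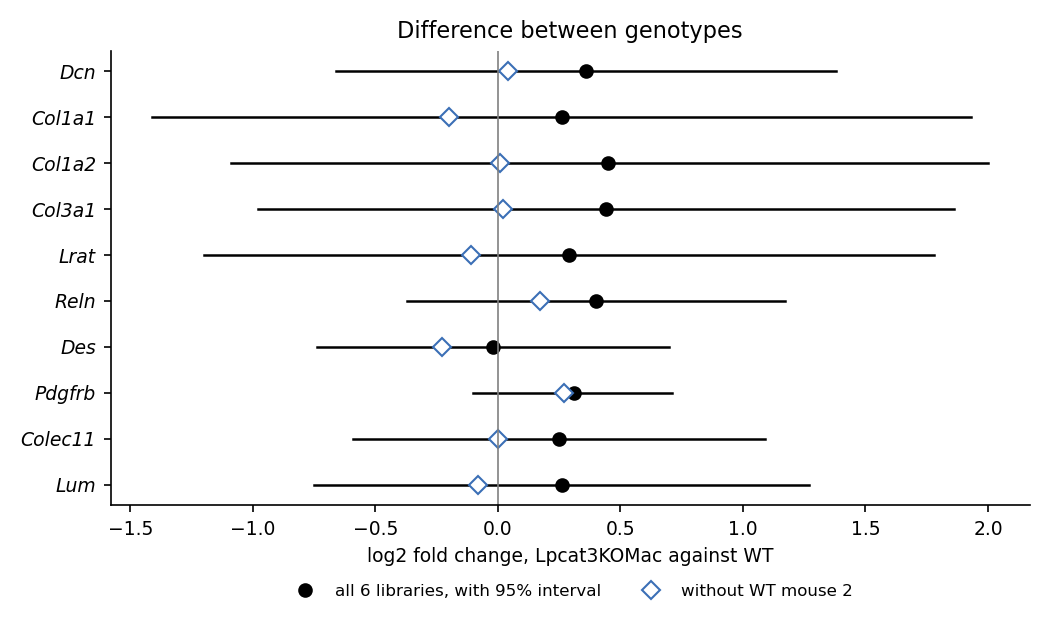
Log2 fold change of Lpcat3KOMac against WT for the 10 transcripts, with filled points and 95% interval bars from edgeR on all 6 libraries (3 against 3) and open diamonds for the fit without WT mouse 2. Every interval spans 0, and Pdgfrb moves least, from 0.31 to 0.27, when WT mouse 2 is left out.

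The promoters of 3 of the genes are shown because their transcripts took different positions relative to *Dcn* in WT mouse 2, below the other libraries for *Col3a1*, level with the lowest of them for *Lrat* and above them for *Reln*. Of the 10 genes, 6 had an entry in the RefSeq promoter table (GRCm38.p6), and the 250 bases before the annotated start were searched on both strands for the TATA box letters TATAAA, the CAAT box letters CCAAT, the GC box letters GGGCGG, the AP-1 letters TGACTCA and the SMAD-type letters CAGACA. No motif overlaps another in the windows shown. Capitals mark the matches, some of them on the reverse strand. The windows are chr1:45311288-45311537 (plus strand) for *Col3a1*, chr3:82903975-82904224 (minus strand) for *Lrat* and chr5:22344706-22344955 (minus strand) for *Reln*, each written 5′ to 3′ along its gene.
Col3a1: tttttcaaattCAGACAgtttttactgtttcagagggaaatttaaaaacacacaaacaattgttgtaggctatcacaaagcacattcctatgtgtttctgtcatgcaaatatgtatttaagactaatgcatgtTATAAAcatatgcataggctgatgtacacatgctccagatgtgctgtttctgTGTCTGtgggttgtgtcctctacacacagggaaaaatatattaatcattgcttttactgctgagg
Lrat: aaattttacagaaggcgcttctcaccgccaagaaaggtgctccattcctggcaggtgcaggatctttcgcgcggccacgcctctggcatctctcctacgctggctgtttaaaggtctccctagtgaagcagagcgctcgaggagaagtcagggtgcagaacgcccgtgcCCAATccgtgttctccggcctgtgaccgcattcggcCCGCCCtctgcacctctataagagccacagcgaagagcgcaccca
Reln: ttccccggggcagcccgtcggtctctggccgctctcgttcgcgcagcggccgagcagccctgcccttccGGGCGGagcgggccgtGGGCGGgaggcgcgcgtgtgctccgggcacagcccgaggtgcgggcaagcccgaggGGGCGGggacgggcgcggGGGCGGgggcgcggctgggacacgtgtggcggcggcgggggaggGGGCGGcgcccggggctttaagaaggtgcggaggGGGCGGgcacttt

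The *Col3a1* window held TATAAA, as 13% of the 27025 promoters of the table did, and CAGACA on both strands, which 17.1% of promoters held on either strand. *Lrat* held CCAAT (34.5% of promoters) and GGGCGG (32.9%), and *Reln* held 6 copies of GGGCGG. GC content was 35.2% in the *Col3a1* window, 59.2% in that of *Lrat* and 80% in that of *Reln*, around a median of 52% over all promoters of the table. TGACTCA, held by 4.43% of promoters, matched in none of the 6 windows. A match to these letters is not evidence of a bound factor, and the 3 windows are too few to relate to levels.

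Transcripts of other liver cells moved with these in part. The 8 sinusoidal endothelial markers summed to 893, 846 and 1010 CPM for the WT mice against 1380, 1200 and 945 CPM for the *Lpcat3KOMac* mice. WT mouse 2 was the lowest library for 7 of 8 genes, with *Stab2* the exception. *Stab2* alone made up 489 of the 846 CPM in WT mouse 2. At the median of the 8 genes WT mouse 2 stood at 55.9% of the mean of the other 5 libraries. The 5 hepatocyte markers summed to 20200, 1880 and 1720 CPM for WT and to 4680, 12400 and 4320 CPM in *Lpcat3KOMac* mice, lowest in WT mouse 3. The 8 Kupffer cell markers ran the other way, with the highest sum, 44300 CPM, in WT mouse 2 and the lowest, 25400 CPM, in *Lpcat3KOMac* mouse 2. Such levels are relative to the rest of each library, and the part of other cells in the levels of the 10 transcripts was not tested.

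**Figure D4:**
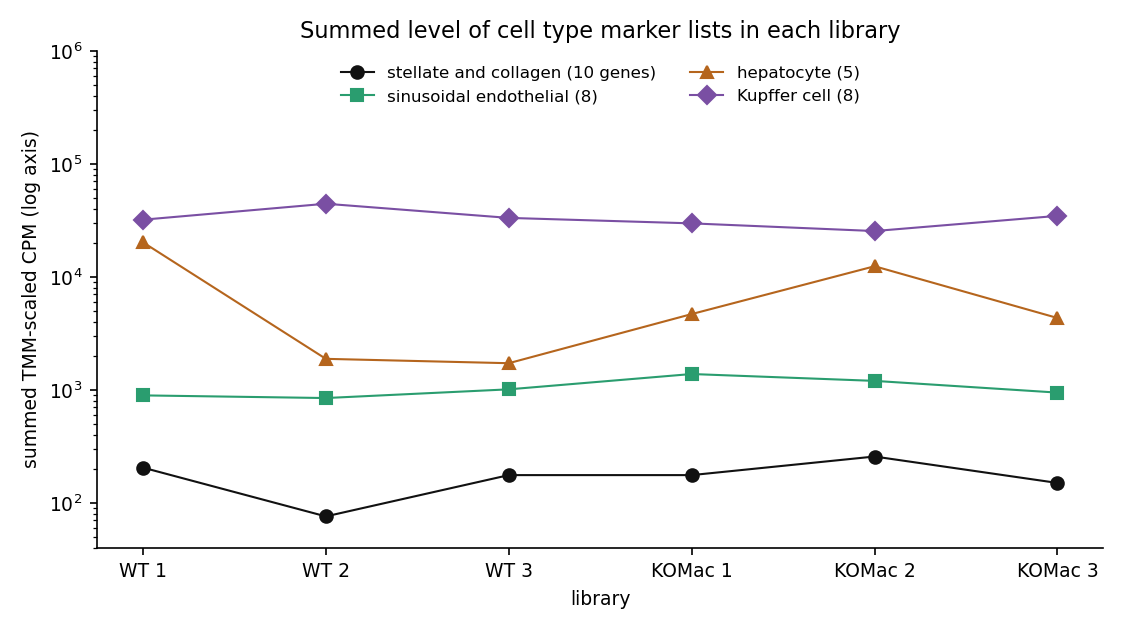
Summed TMM-scaled CPM (log axis) of the 10 stellate cell and collagen transcripts and of marker lists of sinusoidal endothelial cells, hepatocytes and Kupffer cells in each of the 6 libraries, with lines joining the values of a list. The stellate cell sum is lowest in WT mouse 2 (75.9 CPM), where the Kupffer cell sum is highest (44300 CPM).

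Markers of other collagen-producing cells and of further cell types had low summed levels, over lists that differ in size. On exonic length the smooth muscle markers averaged between 0.00547 and 0.738 CPM per kb, with *Tagln* highest. *Tagln* thus lay above *Des*, at 0.653, and close to *Col1a1*, at 0.77 CPM per kb. The portal fibroblast markers lay below both, between 0.00184 and 0.306 CPM per kb. The 9 markers of portal fibroblasts summed to between 3.19 and 7.3 CPM in WT and between 5.31 and 6.63 CPM in *Lpcat3KOMac* mice, with *Mfap4* at 0 counts in all libraries but 1 and *Clec3b* at 2 to 5 counts. The 4 smooth muscle markers summed to between 1.98 and 3.68 CPM over all libraries. *Acta2*, the smooth muscle actin that also marks activated stellate cells, had 24 to 53 counts per library and a log2 fold change of -0.14, with a standard error of 0.3. The 3 mesothelial markers summed to between 0 and 1.15 CPM, highest in *Lpcat3KOMac* mouse 1, the 5 cholangiocyte markers to between 0.319 and 1.16 CPM and the 5 lymphocyte markers to between 2.82 and 4.79 CPM.

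The 5 genes whose pattern over the 6 libraries was nearest to that of *Dcn* were *Prelp*, *Efemp1*, *Rspo3*, *Gdf2* and *Robo2*. Nearness was the root mean square difference of log2 CPM after centering each gene, over 12991 genes with a mean of at least 1 CPM. It was 0.11 for *Prelp* and 0.126 for *Robo2*, with a median of 0.604 over all these genes. *Prelp*, another small leucine-rich proteoglycan, was at 34.1, 12.7 and 24.1 CPM for the WT mice against 30.6, 37.2 and 22.5 CPM for the *Lpcat3KOMac* mice. *Rspo3*, a secreted enhancer of Wnt signaling, was at 4.91, 1.42 and 3.65 CPM for WT against 3.7, 4.94 and 2.74 CPM for *Lpcat3KOMac* mice. *Gdf2*, the ligand BMP9, ranged from 3.55 CPM in WT mouse 2 to 12.8 CPM in *Lpcat3KOMac* mouse 2. Among the 10 transcripts *Colec11* was nearest to *Dcn* at 0.161 and *Pdgfrb* farthest at 0.449. Ranked by nearness among all genes tested, *Colec11* was at place 34 and *Pdgfrb* at 1394. *Col3a1* was at place 389 and *Col1a1* at 865, so many other genes followed *Dcn* more closely than the collagens did.

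A further 16 stellate cell genes were all tested, and 0 of 16 had an adjusted p-value under 0.05 in edgeR, and 0 lay under 0.05 before adjustment. Their median log2 fold change was 0.21, with 13 of 16 above 0, and without WT mouse 2 it was -0.02, with 7 of 16 above 0. *Sod3*, the extracellular superoxide dismutase, had the highest value, 0.58 (standard error 0.42), and *Colec10*, the collectin that pairs with that of *Colec11*, the lowest, -0.21 (standard error 0.63). WT mouse 2 was the lowest library for 13 of the 16, the exceptions being *Hgf*, *Ecm1* and *Vipr1*. At the median it stood at 59.3% of the mean of the other 5 libraries, against 39.1% for the 10 transcripts. Of the lists described below, the same median was 33.5% for the collagen and matrix genes, with WT mouse 2 lowest for 12 of 14. It was 28.5% for the tested retinoid and reelin partners and 42.7% for the other small leucine-rich proteoglycans. For collagen modification and export it was 86.8%, for collagen receptors 89.1% and for the PDGF and TGF-beta genes 92.4%. Of the summed 344 CPM of the 16 in WT mouse 2, *Ecm1* alone made up 193 CPM, against 140 to 192 CPM in the other libraries.

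The 14 other collagen and matrix genes, among them the chains of types IV, V and VI, had a median log2 fold change of 0.52, with 14 of 14 above 0, and 0 passed an unadjusted p-value of 0.05 in edgeR. Without WT mouse 2 the median was 0.29, with 12 of 14 above 0. *Col6a2* was lowest at 0.22 (standard error 0.53) and *Lox*, the lysyl oxidase that crosslinks collagen, highest at 1.5 (standard error 0.8). The value of *Lox* rested on *Lpcat3KOMac* mouse 3, which was at 2.32 CPM while the other 5 libraries lay between 0.289 and 0.585 CPM. The 15 genes of collagen modification and export had a median of -0.03 (0.06 when scaled by total counts), from *P4ha2*, a prolyl hydroxylase subunit, at -0.29 (standard error 0.23) to *Sparc*, a collagen-binding glycoprotein, at 0.58 (standard error 0.42), and 0 lay under 0.05 before adjustment.

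Of 14 genes of the PDGF and TGF-beta pathways, which act on stellate cells, 0 were called, while 1 was higher and 1 lower with p under 0.05 before adjustment in edgeR, where 2.64% of all genes were. *Tgfbr3*, the co-receptor betaglycan, was at 6.96, 4.23 and 7.89 CPM for the WT mice against 14.1, 13.1 and 8.18 CPM for the *Lpcat3KOMac* mice, with a difference of 0.89 on the log2 scale (standard error 0.32, unadjusted p = 0.032 and adjusted p = 1 in edgeR). *Smad7*, the inhibitory SMAD, and *Tgfb3* shared the lowest value, -0.30, and *Smad7* was the lower gene under 0.05 (unadjusted p = 0.0352 in edgeR). Without WT mouse 2, 0 of the 14 lay under 0.05 before adjustment. The other small leucine-rich proteoglycans (3 of 6 tested) had log2 fold changes from -0.52 for *Omd* (standard error 1.15) to 0.38 for *Bgn* (standard error 0.36), and *Fmod*, *Ogn* and *Aspn* were too low to test. The value of *Omd* rested on WT mouse 1, at 2.76 CPM against at most 1.02 CPM in the other libraries. The retinoid and reelin partners (6 of 8 tested) ranged from -0.37 for *Cyp26a1* (standard error 0.84) to 0.91 for *Cyp26b1* (standard error 1.12), enzymes that clear retinoic acid. *Cyp26b1* went from 1.52 CPM in WT mouse 2 to 42.6 CPM in *Lpcat3KOMac* mouse 2. *Cyp26a1* was at 4.99 CPM in WT mouse 1 and between 0.499 and 1.99 CPM in the other libraries. The collagen receptors (8 of 10 tested) ranged from -0.28 for *Itga10* to 0.88 for *Ddr1*. In the lists of proteoglycans, retinoid and reelin partners and collagen receptors, 0 genes passed an unadjusted p-value of 0.05 in edgeR.

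**Figure D5:**
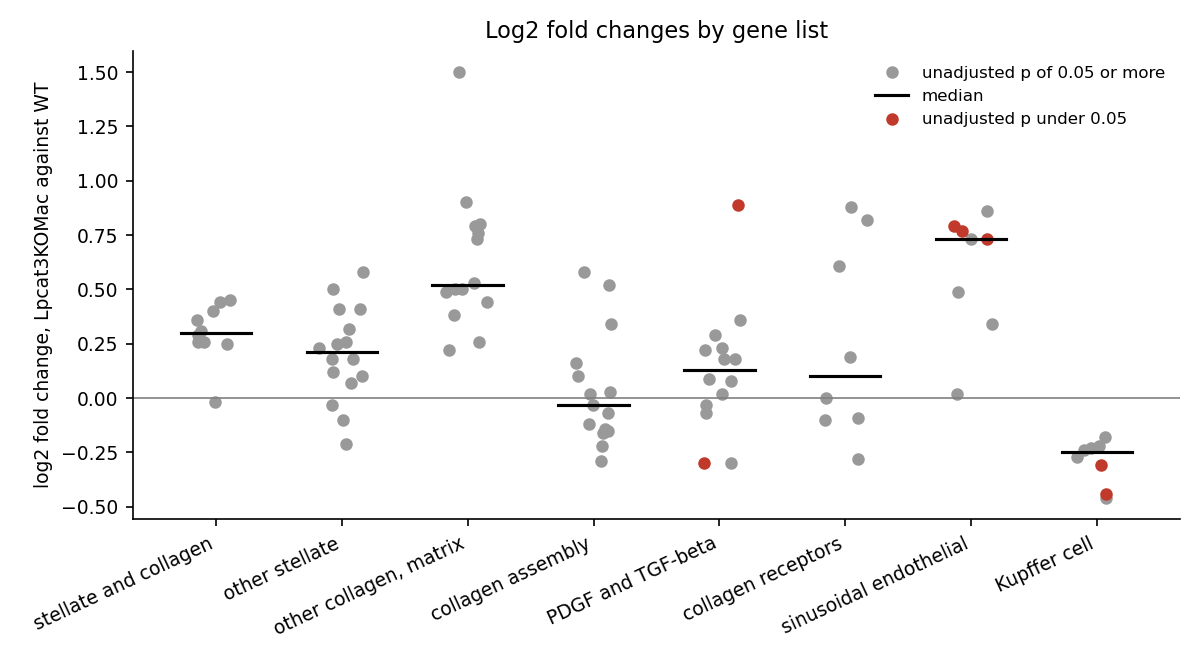
Log2 fold change of Lpcat3KOMac against WT (3 mice each, edgeR) for the tested genes of 8 lists, with a point per gene, red where the unadjusted p-value was under 0.05, and black lines for the medians. The 10 stellate cell and collagen transcripts lie between -0.02 and 0.45 with no red point, around a median of 0.30.

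Beside these values, and beside 40.1% of all genes above 0 and 2.64% under 0.05 before adjustment, the sinusoidal endothelial markers had log2 fold changes above 0 for 8 of 8 genes, with a median of 0.73, from 0.02 for *Stab2* to 0.86 for *Lyve1*. Before adjustment 3 of the 8 lay under 0.05 in edgeR, 4 when scaled by total counts, and 0 without WT mouse 2, where the median was 0.53. The Kupffer cell markers were below 0 for 8 of 8, from -0.46 for *Timd4* to -0.18 for *Adgre1*, with a median of -0.25 and 2 under 0.05 before adjustment. Scaled by total counts their median was -0.16, with 0 under 0.05, and without WT mouse 2 it was -0.06, with 3 of 8 above 0 and 0 under 0.05.

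The lists of the other cells depended on which libraries entered. The hepatocyte markers had a median of -0.38 with 0 of 5 above 0 (1 of 5 when scaled by total counts), which became -0.85 without WT mouse 2. Without WT mouse 1 and *Lpcat3KOMac* mouse 2, the libraries highest in these markers, the hepatocyte median turned to 1.31, with 5 of 5 above 0 and 4 under 0.05 before adjustment. The libraries were left out for their levels of these same markers, so this turn cannot be read as a test of genotype. Of the portal fibroblast markers 6 of 7 tested were above 0, with a median of 0.25, which was 0.03 without WT mouse 2 and 0.84 without the 2 hepatocyte-rich libraries, where 1 gene lay under 0.05. The smooth muscle markers had a median of -0.14 with 0 of 3 above 0, and -0.36 without WT mouse 2. The cholangiocyte markers (3 of 5 tested) had a median of 0.63, which was 0.29 without WT mouse 2 and 1.32 without the 2 hepatocyte-rich libraries, where 2 were tested and 1 lay under 0.05. The lymphocyte markers had a median of 0.12, which turned to -0.21 without those 2 libraries, and the mesothelial markers were too low to test. With all 6 libraries, 0 genes of these lists lay under 0.05 before adjustment. The 10 stellate cell and collagen transcripts had a median of 0.33 without the 2 hepatocyte-rich libraries, with 9 of 10 above 0 against 45.8% of all genes. In the same setting 1 of 16 further stellate cell genes lay under 0.05 before adjustment. So did 1 of 14 collagen and matrix genes, 1 of 15 collagen modification genes and 1767 of the 16126 genes tested.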

How the data were processed

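Per the labels, poly-A selected RNA of F4/80-positive cells was made into NEBNext Ultra libraries, and the submitters' processing notes name Trimmomatic 0.36, STAR 2.5.2b, featureCounts, Subread 1.5.2 and GRCm38. The strand setting and the treatment of multi-mapping reads are not given in the sources used here. The authors deposited raw read counts per Ensembl gene, 1 table per library. Of 49315 genes, 49056 (99.47%) matched a GENCODE M21 symbol. Exons of *Col3a1*, *Reln* and *Des* overlap those of other genes, which had at most 1 count.

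These counts were fitted with edgeR 4.0.16 (R 4.3.3): default filter (minimum count 10), TMM, robust quasi-likelihood test, genotype as the only term, Benjamini-Hochberg adjustment over 16134 genes, calls at an adjusted p-value under 0.05. The standard error is the absolute log2 fold change over the square root of F. P-values set the difference between groups against the spread between libraries within a group, estimated with the help of all genes tested. No library was a copy of another (chi-square per degree of freedom at least 40.7). Counting error is largest for *Col1a1* in WT mouse 2, with 58 counts. Named genes were all members, the extremes of each list, *Lpcat3*, and the 5 genes nearest *Dcn*, with *Mfap4*, *Clec3b*, *Acta2*, *Clec4f*, *Alb*, *Smad7*, *Hgf*, *Ecm1*, *Vipr1* and the genes too low to test added after their values were seen. Alternatives were DESeq2 1.42.0 (Wald test, alpha 0.05), limma-voom (limma 3.58.1), DESeq2 size factors, total counts, no filter, a replicate block, a hepatocyte covariate, a length offset, leaving out each mouse in turn and a prior count of 0.5. Added after seeing the data were leaving out the 2 libraries highest in hepatocyte markers, the longest coding transcript as length, the ratio to *Dcn* and the lists without single libraries. Fits were tested on simulated data with log2 changes of 2 in either direction and the same dispersion for every gene. Smaller changes and uneven cell content were not simulated. The members and lists were chosen with earlier results of these data known. Protein sequences were not used here.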

Additional observations from a re-analysis of the deposited data

How the results depend on the processing

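Over 15 alternatives, 137 of 150 log2 fold changes of the 10 transcripts kept their direction, 13 changed it, and 0 passed an adjusted p-value of 0.05. *Des* changed direction with total counts (0.07), limma-voom (0.01) and the replicate block (0.00). Leaving out each mouse in turn gave -0.23 to 0.16 for *Des*, -0.20 to 0.94 for *Col1a1*, -0.16 to 0.60 for *Lrat*, 0.00 to 0.52 for *Colec11* and -0.08 to 0.58 for *Lum*. The median of the 10 ranged from 0.00 without WT mouse 2 to 0.57 without WT mouse 1. *Lrat* and *Col1a1* also changed direction without *Lpcat3KOMac* mouse 2. DESeq2 called 15 genes and every other alternative 0, with 138 to 2028 genes at an unadjusted p-value under 0.05 where the main analysis had 426. The lowest was the replicate block and the highest came without WT mouse 1, and the cause was not tested. The replicate block gave the 10 a median of 0.39. Same-numbered libraries deviated together with a mean correlation of -0.18 across genes, against 0.11 for others, and 1 of 6 libraries was nearest its own number, so the numbers were not taken as pairs. Scaled by total counts, *Dcn* was within 1 SD (between the mice of its group) of its TMM value in all 6 libraries. The TMM factors lay only between 0.9104 and 1.047, so little else could come out. With a prior count of 0.5, 4 of the 5 genes nearest *Dcn* were shared.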
